A study of Mus musculus with 12 samples.

Results

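Meiotic maturation of wild-type (WT) mouse oocytes was described by setting ovulated metaphase II (MII) oocytes against fully grown oocytes still arrested in prophase, the germinal vesicle (GV) stage. The question was which transcripts were cleared and which were kept when an oocyte left the GV stage. Genes with at least 1 FPKM (fragments scaled to transcript length and to the mapped fragments of the library) in at least 1 of the 4 libraries were taken, which were 10337 of the 23230 genes listed. The gene just inside this limit was Hpdl, with a highest value of 1.002 FPKM, and the gene just outside was Slc9a3, with 0.9995 FPKM.

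Each stage had 2 libraries of 10 oocytes. GV oocytes came from WT females of a C57BL6/ICR hybrid background, labelled as 21 days old, 44 h after PMSG, a gonadotropin that stimulates follicle growth. MII oocytes were ovulated by superovulated WT females and taken from the oviduct 16 h after hCG, the hormone that triggers ovulation. Libraries were made by Smart-seq2, which copies RNA from its poly(A) tail, so that a lost transcript and a transcript with a short tail cannot be told apart. The same series holds growing oocytes, labelled as 13.5 days old, and Zar1/2-null oocytes labelled with all 3 stages, from mice made with CRISPR/Cas9. These were used here for the spread between replicates and for 1 comparison between genotypes. The labels do not say whether the libraries of a group came from separate females, so p-values measure the spread between these libraries.

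A fully grown oocyte no longer transcribes. It lives from stored maternal mRNA until the embryo's genome is activated. When meiosis resumes, part of this store is translated after its poly(A) tails are lengthened, often through a cytoplasmic polyadenylation element (CPE) near the 3′ end, and another part loses its tails through the CCR4-NOT deadenylase with its adaptor BTG4 and is degraded.

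Sequences of 3′ ends of transcripts are shown because, of 4 kinds of motif searched near the end of the 3′ UTR (untranslated region), CPE motifs differed most in share between held and cleared genes (values further on). The windows below are 30 bases of the annotated 3′ UTR, written 5′ to 3′ along the transcript, with mm9 positions. Capitals mark CPE motifs (TTTTAT or TTTTAAT) and polyadenylation signals (AATAAA or ATTAAA), which can overlap. The first 5 belong to transcripts that fell by less than 3-fold from GV to MII and hold a CPE in the last 100 bases.
Zbed3, chr13:96107767-96107796, plus strand: tttttTTTTAATAAAcTTTTATttatctgc
Magoh, chr4:107559952-107559981, plus strand: attggggcaatTTTTATaaacAATAAAtga
Cnot7, chr8:41578391-41578420, minus strand: cttaaggtacaTTTTATatcAATAAAaata
Btg4, chr9:50927903-50927932, plus strand: gataaatccctTTTTATgtctttttaaaag
Wee2, chr6:40416783-40416812, plus strand: tgtaAATAAAgaTTTTATcttatccaaaga

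The next 4 are the last 30 bases of transcripts that fell by more than 10-fold and hold no CPE in their last 100 bases. All but Calm2, a calmodulin gene, are among the genes with the largest falls. The opposite cases are not shown. As examples, Eif1ax fell by more than 10-fold and holds a CPE in its last 100 bases. Oosp1, Mphosph6, Snrpg and Ccnb1, among others, fell by less than 3-fold and hold none. Opposite cases are common, since 139 of 1415 cleared genes hold the motif there and only 99 of 238 held genes do.
Psmb7, chr2:38443556-38443585, minus strand: aAATAAAtaAATAAAaagacaaaaaactta
Cox7c, chr13:86184421-86184450, minus strand: aaaattgtaAATAAActaatgacataaaga
Chchd2, chr5:130357027-130357056, minus strand: taaaaaaAATAAAttggttattctgaagtg
Calm2, chr17:87832752-87832781, minus strand: ttccAATAAAaaaaattacaatttacccaa

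The oocytes were checked against marker genes first. All 12 oocyte markers were present in every library. They took 2.80% of the summed FPKM in both GV libraries and 4.66% and 4.35% in the MII libraries. Of 22 granulosa and cumulus cell markers, 18 stayed under 1 FPKM in all 4 libraries, among them Amh and Foxl2, listed at 0 throughout. Their summed level was 20.9 and 18.1 FPKM at GV and 5.22 and 5.57 FPKM at MII. As a share this was 0.00376% and 0.003875% at GV and 0.00416% and 0.00470% at MII, so not lower. Under 1 FPKM in all 4 libraries were also 8 of 10 immune and 7 of 9 oviduct epithelium markers. The oviduct markers, with Cdh1 the highest, summed to 35.0 and 31.9 FPKM at GV and 15.5 and 16.5 FPKM at MII. Their share rose from 0.0063% and 0.0068% at GV to 0.0124% and 0.0140% at MII.

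Values had been scaled by the authors with ERCC spike-in RNA, so that a library with less RNA per spike-in molecule has lower values. The summed FPKM was 577185 and 480800 in the GV libraries and 128281 and 121121 in the MII libraries, and before the scaling 690397 and 689407 against 570887 and 531748. The scaling was therefore the source of most of the drop in the sum. Without small RNA genes, 50% of the summed FPKM was reached with 332 and 336 genes at GV and with 147 and 181 genes at MII. The 10 most abundant genes held 6.91% in both GV libraries and 14.9% and 13.5% in the MII libraries. At least 10 FPKM on average was found for 4914 genes at GV and 1715 genes at MII. Library totals and read counts were not used here, so the counting error of a single value is unknown.

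Most transcripts were lower at MII. Differences between MII and GV are given below as log2(FPKM + 1) at MII minus GV from limma, with 95% intervals, and p-values adjusted by Benjamini-Hochberg. The added 1 FPKM makes the difference of a low gene smaller than it is. Of the 10337 genes, 9986 were lower at MII, 11 were higher and 340 were not called. Over all 11502 genes tested, 93.4% were called lower and 0.104% higher. Both MII libraries lay below both GV libraries in 10149 genes, above them in 14 and overlapped them in 174, against 97.1% below and 0.2% above over all genes tested. The median difference was -1.42, with 5% of the genes below -4.58 and 5% above -0.51. An exact permutation test of 2 against 2 libraries cannot give a p below 0.33, so the spread was estimated over all 6 groups of the series.

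The size of the ERCC factor sets these calls. Without it, the median difference was -0.51, a shift of 0.92, and 5158 of the 10337 genes were called lower and 2210 higher (47.6% and 19.7% of all genes tested). The mean factors of the stages were 3.39-fold apart, so an abundant gene that fell by less than 1.76 on the ERCC scale was higher without it. Both scales are given for most groups.

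**Figure D1:**
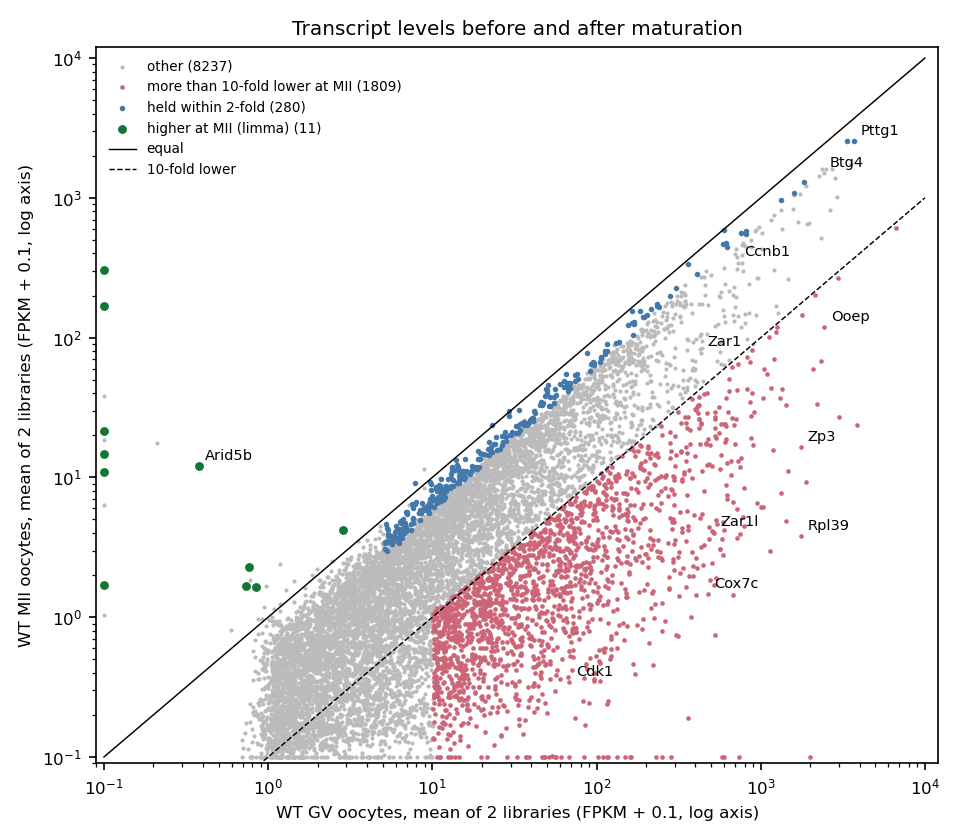
Mean FPKM (ERCC-scaled, 0.1 added for the log axes) of 10337 genes in WT GV oocytes (x axis) and WT MII oocytes (y axis), 2 libraries each. Red points are the 1809 genes more than 10-fold lower at MII, blue points the 280 genes held within 2-fold and green points the 11 genes called higher. The solid line marks equal level and the dashed line a 10-fold lower level at MII, and nearly all genes lie below the solid line.

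A class of transcripts stood at either end of this range. A gene was called cleared when its mean fell by more than 10-fold after means under 1 FPKM had been set to 1 FPKM, which only genes above 10 FPKM at GV could do. Cleared genes were 1809 of the 10337 (15.7% of all genes tested), or 36.8% of the 4914 genes above 10 FPKM at GV. Of the 1809, 1799 were also lower by limma, 748 were at or below 1 FPKM at MII, and 41 were small RNA genes. A gene was called held when its 95% interval lay within 2-fold in either direction and its mean was at least 5 FPKM at one stage. Held genes were 280 of 6488 (2.43% of all genes tested). All 280 were called higher without the ERCC scaling. This largely follows from the definition, since the mean factors of the stages lay 3.39-fold apart, more than the 2-fold limit. Held genes are thus those that stayed near their level per spike-in and gained in share.

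The fall was larger for abundant transcripts. Among genes with 1 to 5 FPKM at GV the median difference was -1.08, for 5 to 20 FPKM -1.72, for 20 to 100 FPKM -2.25 and for 100 FPKM or more -3.07. Of the 1020 genes in the highest class, 482 were cleared and 39 were held. The added 1 FPKM contributes to this order, since it limits the difference of genes of low level.

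The cleared genes with the largest falls coded for housekeeping machinery. Of the 11 described here, 5 were listed as genes of ribosomal proteins. Rpl39, a protein of the large ribosomal subunit (chromosome X, 34622515 to 34625397 in mm9), had 1925 and 1618 FPKM in the GV libraries and 3.68 and 3.74 FPKM in the MII libraries, a 477-fold lower mean (difference -8.55, 95% interval -9.0 to -8.10). Rps13 had 1181 and 1089 FPKM at GV and 2.43 and 3.35 FPKM at MII. Both stages were far apart in these genes, with no overlap between libraries.

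Rpl19 fell from 523 and 513 to 0.879 and 2.34 FPKM, and Rps27a, which codes for ubiquitin fused to a ribosomal protein, from 431 and 371 to 1.59 and 1.07 FPKM. Rps27 was less well measured at GV, with 137 and 586 FPKM against 0.0547 and 0.129 FPKM at MII, and its interval ran from -11.84 to -4.21. Ribosomal protein genes have many processed copies in the genome and only uniquely mapped reads had been kept, so their levels are uncertain.

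Energy metabolism, protein degradation and splicing were also among these 11. Cox7c, a subunit of cytochrome c oxidase, had 512 and 437 FPKM at GV and 1.61 and 1.13 FPKM at MII (346-fold lower). Chchd2, a mitochondrial protein, had 334 and 290 FPKM at GV and 0.620 and 0.638 FPKM at MII. Psmb7, a catalytic subunit of the proteasome, had 416 and 331 FPKM at GV and 0.887 and 0.906 FPKM at MII. In all 3 the MII libraries were at or near 1 FPKM and differed little from each other.

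Snrpd2, a core Sm protein of the spliceosome, fell from 303 and 308 to 0.694 and 0.610 FPKM. Fcf1, which acts in processing of ribosomal RNA, fell from 582 and 489 to 1.71 and 1.93 FPKM. The remaining gene, Gm9846, was unevenly measured, with 786 and 275 FPKM at GV and 1.18 and 0.115 FPKM at MII. These falls were not set by the scaling, since the differences of the 11 genes without it still ranged from -8.06 to -6.27.

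The held genes of highest level included oocyte and cell cycle transcripts and genes that act on RNA. Pttg1 codes for securin, the inhibitor of separase (chromosome 11, 43233752 to 43239753 in mm9). It had 3795 and 3625 FPKM at GV and 2733 and 2361 FPKM at MII (difference -0.55, 95% interval -0.90 to -0.20, adjusted p = 0.00642). Oosp1, an oocyte secreted protein, had 3656 and 3036 FPKM at GV and 2881 and 2214 FPKM at MII (difference -0.40, -0.87 to 0.07, adjusted p = 0.0901). The MII libraries of Pttg1 lay below the GV libraries, but the fall was under 2-fold over the whole interval.

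Omt2a and Omt2b, a pair of oocyte genes, had differences of -0.37 and -0.46. Mphosph6, a factor that binds the RNA exosome, had 2052 and 1626 FPKM at GV and 1422 and 1182 FPKM at MII. Zbed3, a protein of the oocyte cortex, had 1538 and 1634 FPKM at GV and 972 and 1197 FPKM at MII. Magoh, of the exon junction complex, had 652 and 533 FPKM at GV and 532 and 403 FPKM at MII, so that 1 MII library nearly reached a GV library.

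Snrpg, another core Sm protein, had 663 and 588 FPKM at GV and 480 and 407 FPKM at MII, in contrast to Snrpd2. Gm20594 had 680 and 508 FPKM at GV and 601 and 582 FPKM at MII, and its libraries overlapped (difference 0.01, -0.45 to 0.47). C86187, 2700029M09Rik and Trim61 had differences from -0.54 to -0.43.

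**Figure D2:**
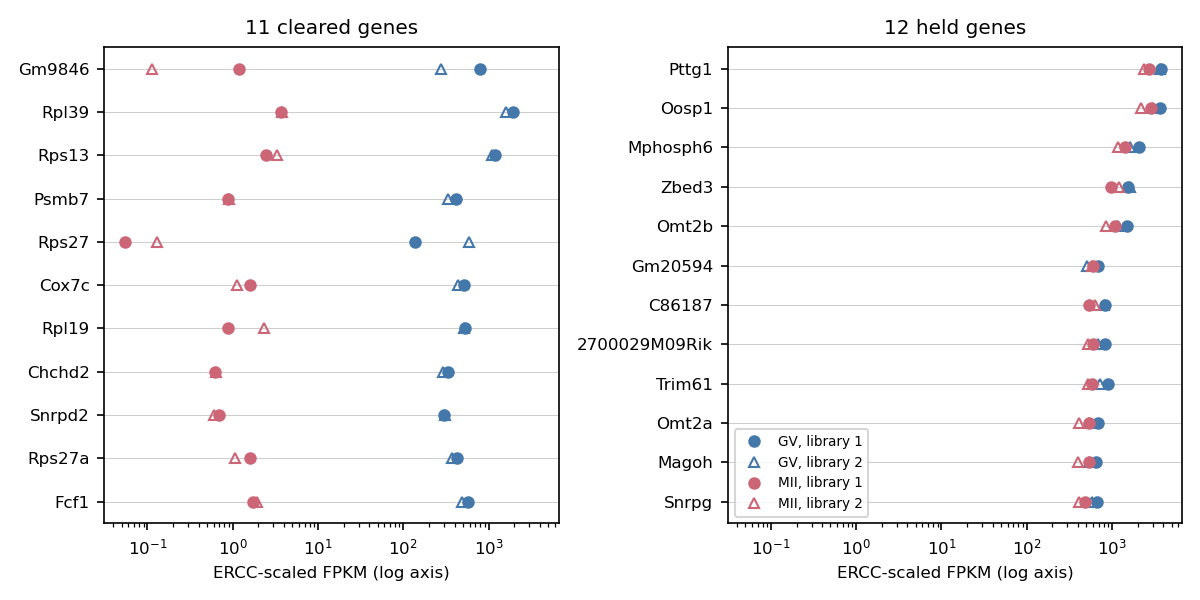
ERCC-scaled FPKM (log x axis) of 11 cleared genes with the largest falls (left) and the 12 held genes of highest level (right) in each of the 2 GV libraries (blue) and 2 MII libraries (red). The stages are far apart on the left, where Rpl39 went from 1925 and 1618 to 3.68 and 3.74 FPKM, and side by side on the right, where Pttg1 went from 3795 and 3625 to 2733 and 2361 FPKM.

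Few genes were higher at MII. Arid5b, a DNA-binding protein (chromosome 10, 67558341 to 67741474 in mm9), had 0.326 and 0.232 FPKM at GV and 11.3 and 12.6 FPKM at MII (difference 3.34, 95% interval 3.03 to 3.65, adjusted p = 1.81e-09). It was the only gene called higher that was not a small RNA and reached 10 FPKM at MII. The others that were not small RNAs were Adarb2, Cd300c, Cdc42ep3 and Gli3, which did not exceed 4.44 FPKM in any library and are named after their values were seen. The small RNAs Snord57, Scarna17, Mir3069 and Mir3074-2 had their high value in only 1 of the 2 MII libraries, which is 338, 611, 42.7 and 29.4 FPKM. Snora64 and Scarna13 had values in both MII libraries and were listed at 0 in both GV libraries.

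Functions were then compared with 51 gene lists. No list held a gene that was called higher at MII on the ERCC scale, and list medians ranged from -5.69 to -0.74, against -1.42 over the 10337 genes. As further yardsticks, 9986 of the 10337 genes were lower, 36.8% of genes above 10 FPKM at GV were cleared and 280 of 6488 were held. A list whose genes are all lower thus lies near the share over all genes.

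**Figure D3:**
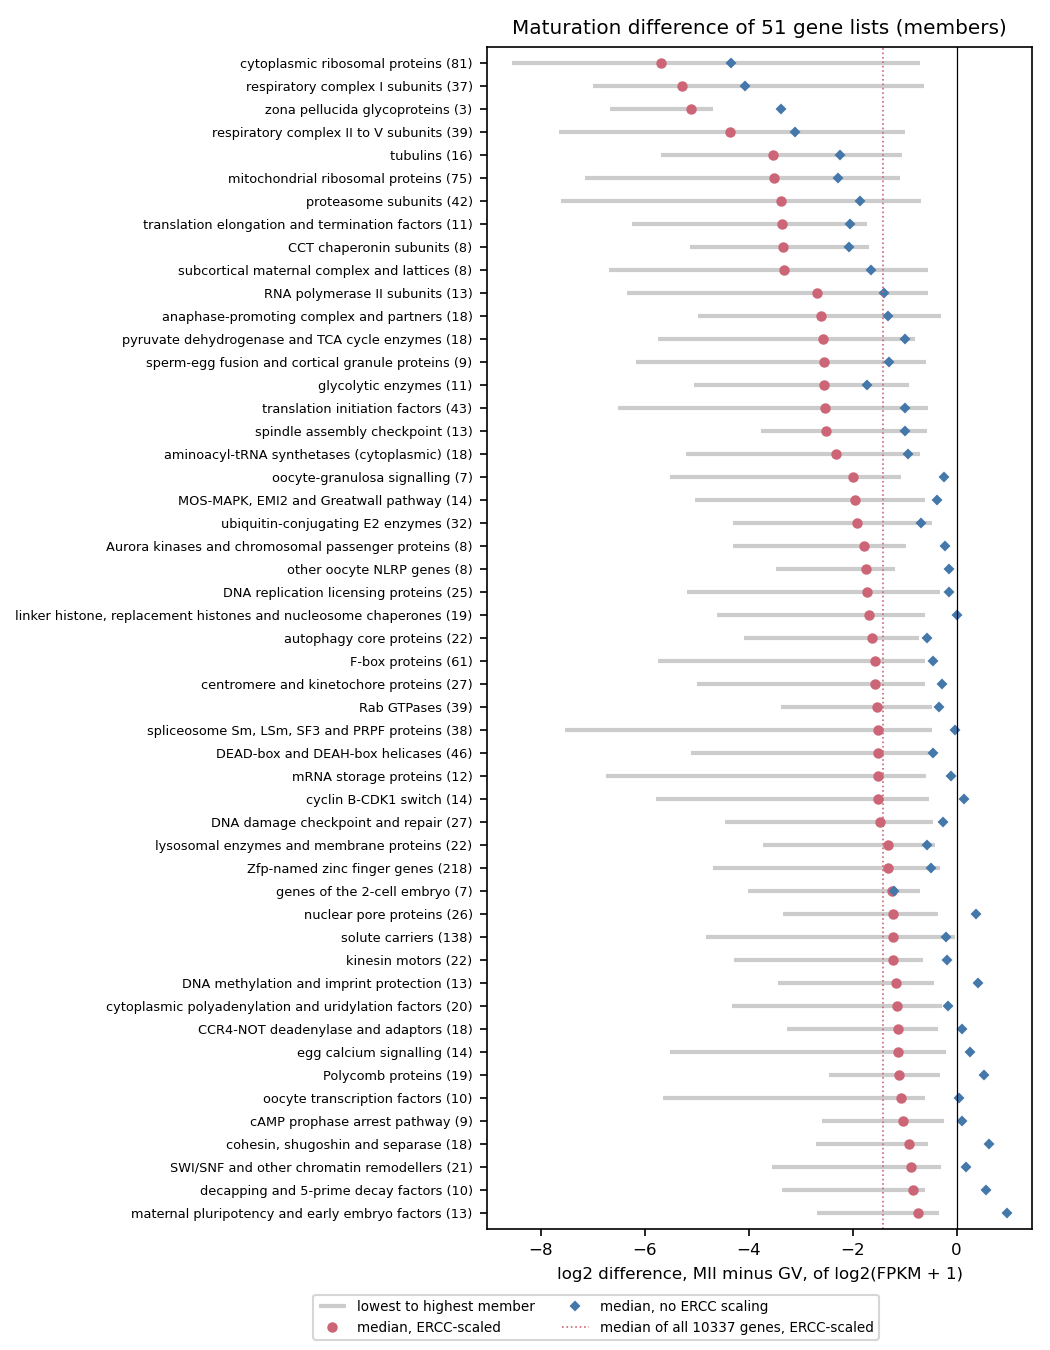
Log2 difference (MII minus GV, x axis) of 51 gene lists, with the number of members in brackets. Red circles are list medians on the ERCC scale, blue diamonds medians without ERCC scaling and grey bars run from the lowest to the highest member on the ERCC scale, from ribosomal proteins at -5.69 at the top to early embryo factors at -0.74 at the bottom.

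Nearly all genes of ribosomal proteins were cleared. All 81 genes of cytoplasmic ribosomal proteins were lower at MII and 73 were cleared, 91.2% of the 80 above 10 FPKM at GV. The median difference was -5.69, and -4.35 without the ERCC scaling, where 78 were still lower and 2 were higher. Their share of the summed FPKM was 6.404% and 7.15% in the GV libraries and 1.10% and 1.04% in the MII libraries. Rpl41, the most abundant of them, had 2212 and 2209 FPKM at GV and 26.5 and 39.7 FPKM at MII.

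Exceptions, named after their values were seen, were few. Rps27l, a paralog of Rps27, had 849 and 704 FPKM at GV and 527 and 424 FPKM at MII (difference -0.71, and 1.05 without scaling). Rps15a had 40.01 and 32.43 FPKM at GV and 18.7 and 14.6 FPKM at MII (difference -1.08, and 0.62 without scaling). Rpl22, Rplp2, Rpl4 and Rps28 fell by 8.57-fold to 9.36-fold and missed the limit of 10-fold. Rpl10l was below 3 FPKM in all libraries.

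Translation factors were mixed. Of 43 initiation factors, 42 were lower on the ERCC scale and 17 cleared (43.6% of those above 10 FPKM at GV), while without scaling 25 were lower and 10 higher. Eif1ax, which helps to select the start codon, fell from 596 and 479 to 4.46 and 5.23 FPKM. Eif3i, a subunit of the eIF3 complex, had 115 and 96.7 FPKM at GV and 73.8 and 70.5 FPKM at MII (difference -0.54, and 1.199 without scaling). Members of this list thus lay at both ends.

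Of 11 elongation and termination factors, 6 of the 10 above 10 FPKM at GV were cleared (60%). Eef1d, a nucleotide exchange factor of elongation, had 195 and 170 FPKM at GV and 1.27 and 1.57 FPKM at MII. Of 18 cytoplasmic aminoacyl-tRNA synthetases, which charge tRNAs, all were lower but 2 were cleared, 15.4% of those above 10 FPKM at GV.

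Most respiratory chain and mitochondrial ribosome genes were also cleared. All 37 subunits of respiratory complex I were lower at MII and 32 were cleared (86.5% of the 37 above 10 FPKM at GV). The median was -5.28, and without scaling 35 were lower and 1 higher. Ndufa2 had 564 and 593 FPKM at GV and 3.37 and 3.68 FPKM at MII. Ndufa10 was at the other end, with 80.8 and 62.1 FPKM at GV and 47.4 and 43.2 FPKM at MII (difference -0.63, and 1.10 without scaling).

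All 39 subunits of complexes II to V were lower and 31 of the 38 above 10 FPKM at GV were cleared (81.6%). Their median was -4.35. Atp5e of the ATP synthase had 1064 and 990 FPKM at GV and 6.46 and 5.69 FPKM at MII. Cox8a, of the same complex as Cox7c, had 359 and 340 FPKM at GV and 178 and 172 FPKM at MII (difference -0.99, and 0.76 without scaling). The share of complexes II to V went from 2.53% and 2.71% to 0.608% and 0.607%, and that of complex I from 1.28% and 1.35% to 0.306% and 0.288%.

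Of 75 mitochondrial ribosomal proteins, all were lower and 50 of the 72 above 10 FPKM at GV were cleared (69.4%). The median was -3.51 and, without scaling, 65 were lower and 2 higher. Mrps18c had 278 and 241 FPKM at GV and 1.10 and 0.581 FPKM at MII, and Mrpl45 had 22.6 and 19.1 against 9.89 and 8.72 FPKM. The enzymes of pyruvate dehydrogenase and the TCA cycle were closer to the share over all genes, with 18 of 18 lower, 8 cleared (44.4%) and a median of -2.57, while without scaling 12 were lower and 3 higher. Of 11 glycolytic enzymes, 5 of the 7 above 10 FPKM at GV were cleared (71.4%). Among them was Tpi1, with 57.2 and 48.3 FPKM at GV and 0.501 and 0.719 FPKM at MII. Ldhb, a lactate dehydrogenase subunit, was still abundant after an 11.1-fold fall, at 273 and 257 FPKM.

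Protein turnover and folding lists were partly cleared. All 42 proteasome genes were lower and 23 were cleared, 57.5% of those above 10 FPKM at GV, while without scaling 34 were lower and 5 higher. Psma2, of the catalytic core, kept 479 and 384 FPKM of 1156 and 893 FPKM, and Psme4, an activator of the proteasome, had a difference of -0.68 (1.03 without scaling). Core subunits therefore differed widely, since Psmb7 was among the largest falls. All 8 subunits of the CCT chaperonin, which folds actin and tubulin, were lower. Cleared were 5 of the 7 above 10 FPKM at GV (71.4%), as Cct5 with 336 and 254 FPKM at GV and 6.81 and 8.09 FPKM at MII. All 61 F-box proteins were lower and 8 of the 31 above 10 FPKM at GV were cleared (25.8%). All 22 lysosomal genes were lower and 1 of the 8 above 10 FPKM at GV was cleared (12.5%).

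Lists of nuclear RNA machinery lay near the share over all genes, and subunits of the same complex differed. RNA polymerase II had 5 of 11 genes above 10 FPKM at GV cleared (45.5%), DEAD-box and DEAH-box helicases 9 of 23 (39.1%) and the spliceosome 11 of 32 (34.4%). Polr2k fell from 712 and 543 to 8.27 and 5.43 FPKM, and Polr2c, another subunit, had 371 and 324 FPKM at GV and 189 and 179 FPKM at MII. Of 38 spliceosome genes, 37 were lower on the ERCC scale, 11 were cleared and 3 held, while without scaling 16 were lower and 13 higher. Their share went from 0.988% and 1.00% to 1.62% and 1.49%.

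Nuclear pore genes were among those least cleared. Of 26, 25 were lower and 1 of the 19 above 10 FPKM at GV was cleared (5.26%), and without scaling 6 were lower and 13 higher. Nup37 had 128 and 102 FPKM at GV and 102 and 77.3 FPKM at MII, and Nup43, of the same subcomplex, 125 and 92.5 FPKM at GV and 11.2 and 8.50 FPKM at MII.

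Lists of genes that act on the maternal mRNA itself had 6.67% to 30.8% of their genes above 10 FPKM at GV cleared. Over all genes of that level it was 36.8%. Of 18 genes of the CCR4-NOT complex and its adaptors, 17 were lower on the ERCC scale, 1 of the 15 above 10 FPKM at GV was cleared and 1 held, while without scaling 8 were lower and 8 higher. Their share of the summed FPKM was 0.628% and 0.573% at GV and 1.63% and 1.35% at MII. Btg4, the adaptor noted above, made up most of this, with 2762 and 2067 FPKM at GV and 1722 and 1275 FPKM at MII (difference -0.69, 95% interval -1.17 to -0.21). Cnot7, a catalytic deadenylase subunit, had 202 and 136 FPKM at GV and 135 and 124 FPKM at MII. Its libraries nearly met (difference -0.36, -0.82 to 0.11).

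Tob1, another adaptor of the deadenylase, had 9.74 and 9.71 FPKM at GV and 0.116 and 0.133 FPKM at MII. Of 10 decapping and 5′ decay genes, all were lower and 1 of the 6 above 10 FPKM at GV was cleared (16.7%). Without scaling 1 was lower and 6 higher. Dcp1a, a decapping cofactor, had 81.5 and 75.6 FPKM at GV and 41.2 and 50.6 FPKM at MII. Patl2, an oocyte protein that binds mRNA, had 37.98 and 27.91 FPKM at GV and 2.25 and 2.31 FPKM at MII.

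Of 12 mRNA storage genes, all were lower and 2 of the 10 above 10 FPKM at GV were cleared (20%). Lsm14a had 97.4 and 94.9 FPKM at GV and 65.9 and 60.6 FPKM at MII. Zar1l, also called Zar2, had 533 and 504 FPKM at GV and 3.13 and 4.72 FPKM at MII (difference -6.74). Its partner Zar1 had 439 and 423 FPKM at GV and 83.6 and 72.3 FPKM at MII (difference -2.46). The genes coding for this pair of storage proteins therefore fell to different depths.

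Of 20 genes of cytoplasmic polyadenylation and uridylation, 19 were lower and 1 was held. Cleared were 4 of the 13 above 10 FPKM at GV (30.8%). Pabpc1l, the poly(A)-binding protein of oocytes, had 52.3 and 51.9 FPKM at GV and 1.313 and 2.095 FPKM at MII. Dazl, which promotes translation in maturing oocytes, had 276 and 236 FPKM at GV and 122.9 and 107 FPKM at MII. Pabpn1l had 290 and 308 FPKM at GV and 55.9 and 65.2 FPKM at MII.

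Cell cycle lists held strong contrasts between partners. Of the 14 genes of the cyclin B-CDK1 switch, which drives entry into M phase, all were lower and 1 was held. Cleared were 3 of the 11 above 10 FPKM at GV (27.3%). Without scaling 6 of the 14 were lower and 5 higher. Cdk1, the kinase, had 79.5 and 57.1 FPKM at GV and 0.346 and 0.143 FPKM at MII (difference -5.78). Its regulatory partner Ccnb1, cyclin B1, had 829 and 626 FPKM at GV and 360 and 328 FPKM at MII (difference -1.07). The binding partners of CDK1 were less reduced, with Cks1b at -0.53 and Cks2 at 898 and 734 FPKM after 1479 and 1187 FPKM at GV.

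Wee2, the oocyte kinase that inhibits CDK1, had 241 and 188 FPKM at GV and 74.0 and 73.9 FPKM at MII (difference -1.52). In the MOS-MAPK pathway, which keeps the egg arrested at metaphase, 14 of 14 genes were lower and 1 was held. Cleared were 4 of the 12 above 10 FPKM at GV (33.3%). Mapk3 had 157 and 143 FPKM at GV and 3.15 and 4.19 FPKM at MII, whereas Map2k1, the kinase that activates it, had 81.1 and 73.5 FPKM at GV and 52.7 and 47.8 FPKM at MII. Mos, at the head of the pathway, kept 206 and 187 FPKM of 619 and 509 FPKM.

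The anaphase-promoting complex, a ubiquitin ligase, had 17 of 18 genes lower and 9 cleared, 64.3% of those above 10 FPKM at GV. Anapc13 had 91.4 and 90.7 FPKM at GV and 1.502 and 2.462 FPKM at MII, and Anapc10 had 25.02 and 19.36 against 20.1 and 15.6 FPKM, with overlapping libraries. Of 13 spindle checkpoint genes, which delay the complex until chromosomes attach, all were lower and 1 was held. Cleared were 5 of the 11 above 10 FPKM at GV (45.5%). Ttk had 130 and 97.4 FPKM at GV and 6.99 and 7.80 FPKM at MII, and Mad2l1 had 260 and 189 against 164 and 134 FPKM.

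Cohesin, shugoshin and separase genes, which hold and release sister chromatids, differed from these. All 18 were lower on the ERCC scale, none was cleared although 10 were above 10 FPKM at GV, and 5 were held, while without scaling 3 were lower and 11 higher. Their share went from 0.809% and 0.897% to 2.369% and 2.199%, largely through Pttg1. The ratio of the shares, MII over GV, was 2.68, and 1.74 without the 10 genes of highest level. Esco2, a cohesin acetyltransferase, had 209 and 146 FPKM at GV and 90.4 and 75.2 FPKM at MII. The largest fall was that of Cdca5, sororin, from 236 and 188 to 28.0 and 35.3 FPKM.

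Of the aurora kinase and chromosomal passenger genes, 1 of the 7 above 10 FPKM at GV was cleared (14.3%). This was Birc5 (survivin), with 1200 and 994 FPKM at GV and 57.4 and 51.9 FPKM at MII. Aurka, aurora kinase A, had 183 and 140 against 24.9 and 24.8 FPKM. Of 16 tubulin genes, 10 of the 15 above 10 FPKM at GV were cleared (66.7%). Tubb4b, 1 of these, had 813 and 697 FPKM at GV and 13.16 and 13.99 FPKM at MII. Tubb3 had a difference of -1.05 (0.67 without scaling). Among 25 genes of replication licensing, which prepares S phase, 23 were lower and 3 held. Cleared were 4 of the 20 above 10 FPKM at GV (20%). Gins4 had 91.3 and 71.8 FPKM at GV and 1.45 and 1.07 FPKM at MII. Gmnn (geminin) and Orc6 had differences of -0.37 and -0.32, and were not called.

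**Figure D4:**
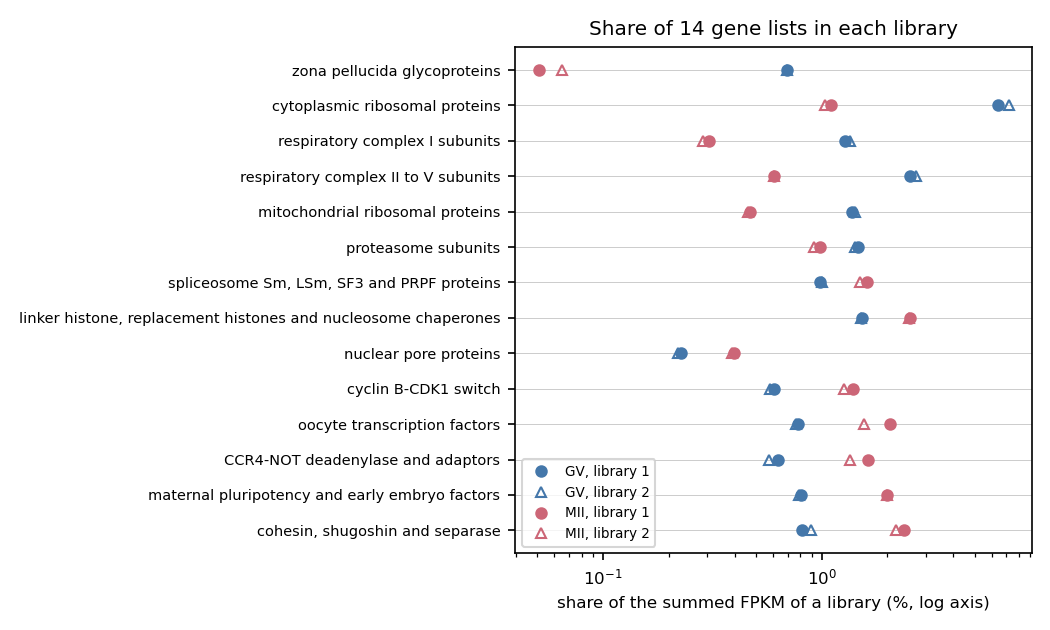
Share of the summed FPKM of a library (percent, log x axis) of 14 gene lists in each of the 2 GV libraries (blue) and 2 MII libraries (red), which does not depend on the ERCC factor. The 14 lists are a selection, and the libraries of the 2 stages do not overlap in any of them. The zona pellucida is at 0.692% and 0.691% against 0.0508% and 0.0649%. Cohesin, shugoshin and separase are at 0.809% and 0.897% against 2.369% and 2.199%. Most lists that are not drawn do not overlap either, so the lack of overlap is not particular to these 14. Some do overlap, among them the subcortical maternal complex and lattices, at 1.30% and 1.41% against 1.19% and 1.51%.

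Genes of the egg's own structures were divided as well. All 3 zona pellucida glycoproteins, which form the egg coat, were cleared. Zp3 had 1862 and 1679 FPKM at GV and 16.7 and 16.1 FPKM at MII, Zp2 1480 and 1128 against 33.2 and 40.4 FPKM, and Zp1 504 and 419 against 13.8 and 20.5 FPKM. Among sperm-egg fusion genes, Cd9 had 282 and 217 FPKM at GV and 2.75 and 2.19 FPKM at MII. Folr4, the sperm receptor Juno, had 368 and 309 FPKM at GV and 10.2 and 10.8 FPKM at MII.

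Of 8 genes of the subcortical maternal complex and cytoplasmic lattices, 4 were cleared and Zbed3 was held, and without scaling 6 were lower and 2 higher. Ooep had 2646 and 2244 FPKM at GV and 131 and 105 FPKM at MII, and 2410004A20Rik, the listed symbol of Khdc3, had 542 and 481 against 3.78 and 4.15 FPKM. Of the factors that oocytes send to granulosa cells, Fgf8 had 93.7 and 89.8 FPKM at GV and 0.902 and 1.17 FPKM at MII. Gdf9 kept 660 and 643 FPKM of 2055 and 1759 FPKM, and Bmp15 kept 255 and 353 FPKM of 1302 and 1095 FPKM.

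Figla, a transcription factor that switches on zona genes, had 74.2 and 69.8 FPKM at GV and 0.276 and 0.687 FPKM at MII. Obox5, an oocyte homeobox gene, kept 1207 and 902 FPKM of 1801 and 1411 FPKM. In egg calcium signalling, Calm2 had 722 and 515 FPKM at GV and 14.3 and 10.7 FPKM at MII. Itpr2, a calcium release channel, had 14.5 and 11.5 FPKM at GV and 10.3 and 11.9 FPKM at MII, with overlapping libraries.

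Chromatin and early embryo lists differed in how many genes were cleared. Of those above 10 FPKM at GV, 3 of 10 SWI/SNF and other chromatin remodellers (30%) and 3 of 14 linker and replacement histone and chaperone genes (21.4%) were cleared. None of 19 Polycomb genes, which repress transcription, was cleared or held although 15 were above 10 FPKM at GV, all were lower on the ERCC scale, and without scaling 4 were lower and 9 higher. Ezh2, their histone methyltransferase, had 174 and 151 FPKM at GV and 83.1 and 93.0 FPKM at MII. Of 13 genes of DNA methylation and imprint protection, all lower, 2 of the 10 above 10 FPKM at GV were cleared (20%) and 2 of the 13 held. Zfp57, which protects imprints, had 678 and 654 FPKM at GV and 51.1 and 72.2 FPKM at MII, and Dppa3, which protects the maternal genome, kept 1584 and 1168 FPKM of 3115 and 2558 FPKM.

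H1foo, the oocyte linker histone, kept 1820 and 1700 FPKM of 3871 and 3258 FPKM, and Npm2, a nucleosome chaperone, 162 and 175 FPKM of 1322 and 1169 FPKM. Of 13 maternal factors of pluripotency and early embryos, 12 were lower and none was cleared although 11 were above 10 FPKM at GV, while without scaling 1 was lower and 10 higher. Tcl1, a member with high levels, had 1907 and 1547 FPKM at GV and 1061 and 1069 FPKM at MII. Nanog had 5.76 and 4.83 FPKM at GV and 5.04 and 3.13 FPKM at MII. Of 7 genes known from the 2-cell embryo, both of those above 10 FPKM at GV were cleared, among them Dppa2, with 123.2 and 104.2 FPKM at GV and 5.18 and 7.09 FPKM at MII.

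A pair of genes often used for normalisation also fell. Actb had 59.5 and 46.0 FPKM at GV and 6.51 and 7.97 FPKM at MII (difference -2.70), and Gapdh 19.6 and 18.6 against 3.51 and 3.71 FPKM (difference -2.12). Without the ERCC scaling they were still lower, by -1.08 and -0.62.

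Transcript features were then compared between classes. Small RNAs and genes under 5 FPKM on average over the 4 libraries were left out, which left 5339 genes. An annotation of the mm9 build gave a coding transcript under the same symbol for 5157 of them (96.6%) and a 3′ UTR of at least 100 bases for 4681. Cleared genes had short transcripts, with a median of 1548 bases against 2325 over all and 3096 in held genes. The median 3′ UTR was 459, 810 and 1246 bases and the median coding length 852, 1140 and 1281 bases in cleared, all and held genes. The 3′ UTRs of cleared genes were richer in G and C, with a median of 46.1% against 42.5% over all and 38.5% in held genes.

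When genes were put in 5 classes of equal size by transcript length, 61.0% of the shortest class were cleared and 9.98% of the longest. Many of the shortest transcripts code for ribosomal, respiratory chain and proteasome proteins (177 of 1032). Without these genes, 55.3% of the shortest class and 9.68% of the longest were cleared, a choice made after the data were seen. Lengths, GC content and gene function move together here and their separate parts were not tested.

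A CPE motif lay in the last 100 bases of the 3′ UTR of 21.8% of all these genes, of 9.82% of the cleared genes (139 of 1415) and of 41.6% of the held genes (99 of 238). Polyadenylation signals were present in 81.6%, 74.8% and 86.1%. The Pumilio motif TGTANATA (5.81%, 4.38% and 7.14%) and the AU-rich motif TATTTAT (4.64%, 2.83% and 5.46%) were rarer in that window. Over the whole 3′ UTR, which is longer in held genes, 33.6% of cleared and 87.4% of held genes had a CPE motif. For the Pumilio motif it was 13.2% and 33.6% and for the AU-rich motif 13.0% and 40.8%, so the difference was not particular to CPE motifs there. Motifs were searched on the transcript strand, and a match is a description of letters, not of a bound site.

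Genes with a CPE motif fell less within each class of 3′ UTR length. For 3′ UTRs of 100 to 300 bases, the median difference was -1.45 in 193 genes with the motif and -3.25 in 805 genes without. For more than 300 and up to 1000 bases it was -1.31 against -2.34, and for more than 1000 bases -1.21 against -1.52. Genes with a polyadenylation signal also fell less in each class (-2.83 against -3.25, -1.94 against -2.65 and -1.375 against -1.84). Genes with an AU-rich motif did too (-2.52 against -2.91, -1.72 against -2.13 and -1.16 against -1.46). With a Pumilio motif the fall was smaller in the shortest and longest class, but not in between (-2.245 against -2.09). The smaller fall was thus not particular to CPE motifs. These medians are given without a test, since genes are not replicates. The CPE motif holds only A and T, and the GC content of the 3′ UTR was not held equal between genes with and without it.

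**Figure D5:**
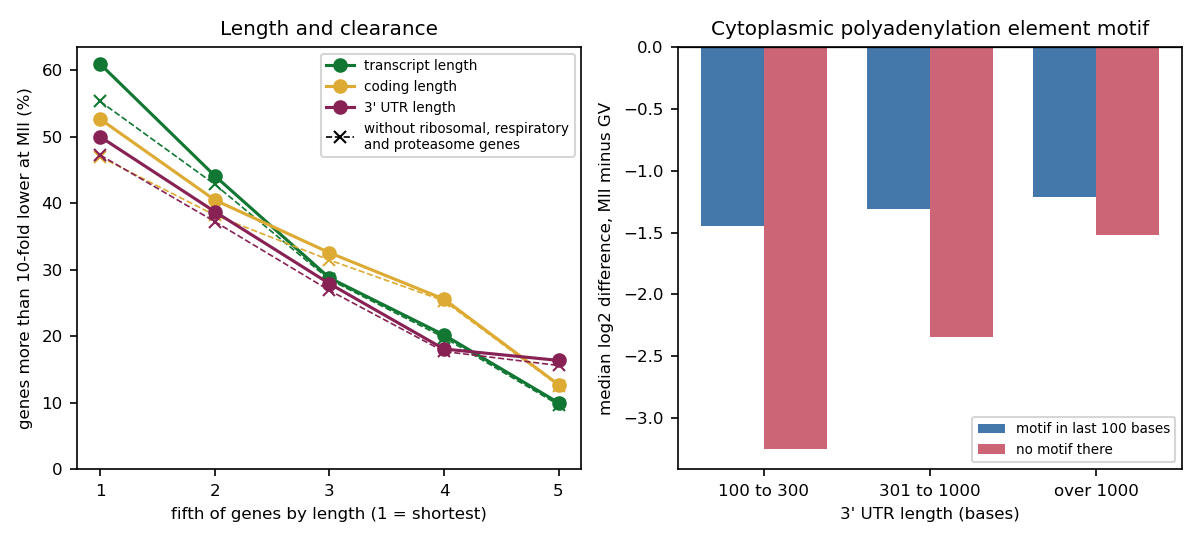
Left, percent of genes more than 10-fold lower at MII in 5 classes of transcript, coding and 3′ UTR length, for all genes (circles) and without ribosomal, respiratory chain and proteasome genes (crosses), with transcript length falling from 61.0% to 9.98%. Right, bars of the median log2 difference (MII minus GV) of genes with and without a CPE motif in the last 100 bases, by 3′ UTR length, with the widest gap at 100 to 300 bases (-1.45 against -3.25).

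The same difference was compared with that in Zar1/2-null oocytes, with an interaction term in limma. It differed between the genotypes in 3904 of the 10337 genes (34.6% of all genes tested), of which 3856 were lower at MII in WT and fell further there than in Zar1/2-null oocytes. Among the 1809 cleared genes, 1155 fell further in WT, and among the 280 held genes 37 differed. Cleared genes were chosen for their fall in WT, which favours this direction, so the count of 1155 is a description. Null GV and MII libraries had ERCC factors of their own, which enter this count. The paper describes ovulated Zar1/2-null oocytes, labelled MII here, as arrested in metaphase or telophase of the first meiotic division. Genotype and the meiotic stage reached cannot be told apart in this comparison.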

How the data were processed

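RNA was measured in 12 libraries of 10 oocytes (6 groups of 2), of which the 4 WT GV and MII libraries are described. The authors cut reads to 50 bp, used TopHat2 2.1.1 with the mm9 build, kept unique reads, computed FPKM with Cufflinks 2.2.1 on UCSC gene models, and multiplied the deposited FPKM values by a factor from the ERCC reads of each library. The factors, recovered from the values, were 0.836 and 0.697 for WT GV and 0.225 and 0.228 for WT MII. The table holds no counts. An exact 0 can be a failed estimate.

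Differences came from 1 limma model (version 3.58.1, R 4.3.3) of log2(FPKM + 1) over all 12 libraries, with 1 term per group and eBayes with a trend, and Benjamini-Hochberg adjustment over 11502 genes of at least 1 FPKM in at least 1 library and a threshold of 0.05. In simulated data for this contrast, on 11502 genes, 200 genes above 10 FPKM at GV were changed 6-fold and the rest left unchanged. The model recovered 98.5% of the 200, with 17 false calls. The simulated noise was independent between genes and held no error of the ERCC factor, so the false calls do not measure that error. Recovery of genes of lower level was not tested. Tables and figures were made with Python 3.11.15, pandas 2.3.3 and matplotlib 3.10.9.

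Named genes were the 12 with the largest fold among cleared genes (at least 50 FPKM at GV, libraries not overlapping), the genes higher at MII of at least 10 FPKM, the 12 held genes of highest MII level, members of each list with the lowest or highest difference or highest level (part of these are printed), and the 7 genes followed in the study. A few genes that these rules choose are not reported here. The members and lists were chosen with earlier results of these data known. Sequences came from GENCODE vM1 on NCBIM37, the mm9 assembly.

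Alternatives were no ERCC scaling, median scaling, a mean factor per group, 0.1 FPKM as pseudocount or floor, other filters, small RNA genes left out, the 4 libraries alone, eBayes without a trend, a replicate block, and each library left out. Scaling alternatives for the comparison between genotypes and the length comparison without ribosomal, respiratory chain and proteasome genes were chosen after seeing the data.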

Additional observations from a re-analysis of the deposited data

Results flagged for a closer look

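The maturation difference of 18 genes, among 11 cleared, the 12 held, Arid5b and the 7 followed genes, differed between WT and Zar1/2-null oocytes by the interaction term of limma. The values below are the WT difference (MII minus GV) minus the Zar1/2-null difference, on the log2 scale, and all but that of Arid5b were negative. The cleared genes were chosen for their fall in WT, which favours a larger fall there. In 13 of the 18 the call held with the same sign without the ERCC scaling, and in 13 after median scaling.

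Of the ribosomal protein genes, Rps27 had -10.2, Rpl39 -8.002, Rps13 -6.17 and Rpl19 -2.27, while Rps27a was not called (-0.67, adjusted p = 0.0949 from limma). The value of Rps27 rests on uneven libraries, with 382.7 and 0.716 FPKM in Zar1/2-null GV oocytes, 132.4 and 98.4 FPKM in Zar1/2-null MII oocytes and 137 and 586 FPKM in WT GV oocytes. Rpl39 had a mean of 1604 FPKM in Zar1/2-null GV oocytes and 1096 FPKM in Zar1/2-null MII oocytes. Of the other cleared genes, Cox7c had -7.52, Gm9846 -7.27, Chchd2 -6.77, Snrpd2 -5.87, Psmb7 -2.39 and Fcf1 -1.15. Cox7c kept 413 FPKM in Zar1/2-null MII oocytes, of 452 FPKM at GV. Psmb7 and Fcf1 had means of 6.99 and 4.95 FPKM in Zar1/2-null MII oocytes.

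Arid5b differed in the other direction, by 3.67, since it had 7.69 FPKM at GV and 5.98 FPKM at MII in Zar1/2-null oocytes. Among held genes, the value was -0.78 for C86187 and -0.80 for Trim61, and neither call held without the ERCC scaling (adjusted p = 0.804 and 0.764 from limma).

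Zar1l (-3.46) and Zar1 (-2.66) are the targeted genes of the knockout, so their values describe the mutated transcripts. Actb had -1.22, Gapdh -1.17 and Wee2 -0.87. Without the ERCC scaling the calls of Actb, Wee2 and Fcf1 were also lost (adjusted p = 0.0709, 0.562 and 0.0800 from limma). The causes of these differences were not tested.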

How the results depend on the processing

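The ERCC factor was the choice that mattered most. Without the ERCC scaling 5473 genes were lower at MII and 2267 higher, 857 were more than 10-fold lower and 2264 were held, and after median scaling the counts were 4755, 3362, 692 and 1832. Of the 1809 cleared genes, 798 remained more than 10-fold lower without the scaling and 657 after median scaling, and 1781 were lower by limma in the fit without the scaling. The count of genes whose maturation difference differed between the genotypes was 2485 without the scaling, against 3977.

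A filter at a mean of 5 FPKM, which leaves fewer genes, gave 5278 lower and 5 higher genes, no filter gave 23 higher genes, and leaving out small RNA genes gave 6. With 0.1 FPKM in place of 1 FPKM as floor or pseudocount, 3464 genes were more than 10-fold lower and 177 were held. Leaving out 1 library gave 10176 to 10578 lower genes, 6 to 12 higher genes, 1658 to 1911 genes more than 10-fold lower and 96 to 313 held genes. The count of held genes was 96 without GV replicate 2 and 183 without MII replicate 2, and that of higher genes was 6 without GV replicate 1 and 7 without GV replicate 2, so these counts rest on single libraries.

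The labels do not say what a replicate number shares. Both WT growing libraries had an ERCC factor of 1, so each number seems to have been scaled to its own growing library. With the replicate number as a block (replicate block), 10806 genes were lower, 12 higher and 332 held. Deviations of libraries of the same number correlated by 0.103 between GV and MII and by -0.144 to 0.194 between other groups, so the numbers were not taken as pairs.

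Of 116 genes named in the text, 47 had a difference of the other sign without the ERCC scaling and 48 after median scaling, where Bmp15 (0.12) was added. Values without the scaling and after median scaling were 1.21 and 1.57 for Pttg1, 1.35 and 1.71 for Oosp1, 1.26 and 1.62 for Mphosph6, 1.199 and 1.557 for Zbed3, 1.30 and 1.65 for Omt2b, 1.25 and 1.61 for C86187, 1.32 and 1.68 for 2700029M09Rik, 1.22 and 1.57 for Trim61, 1.38 and 1.74 for Omt2a, 1.41 and 1.76 for Magoh and 1.26 and 1.61 for Snrpg. In the machinery lists they were 1.05 and 1.40 for Rps27l, 0.62 and 0.97 for Rps15a, 0.12 and 0.40 for Rpl10l, 1.199 and 1.555 for Eif3i, 0.58 and 0.92 for Mrpl45, 1.10 and 1.46 for Ndufa10, 0.76 and 1.11 for Cox8a, 1.03 and 1.38 for Psme4, 0.51 and 0.87 for Psma2, 0.84 and 1.195 for Polr2c, 1.39 and 1.74 for Nup37, 1.39 and 1.75 for Cnot7, 1.07 and 1.42 for Btg4, 0.97 and 1.32 for Dcp1a, 1.14 and 1.5 for Lsm14a and 0.60 and 0.96 for Dazl. In the cell cycle lists they were 1.23 and 1.58 for Cks1b, 1.05 and 1.41 for Cks2, 0.69 and 1.04 for Ccnb1, 1.13 and 1.48 for Map2k1, 0.24 and 0.60 for Mos, 0.23 and 0.58 for Wee2, 1.41 and 1.76 for Anapc10, 1.17 and 1.53 for Mad2l1, 0.67 and 1.03 for Esco2, 0.67 and 1.03 for Tubb3, 1.43 and 1.78 for Orc6 and 1.38 and 1.74 for Gmnn. In the remaining lists they were 0.21 and 0.57 for Gdf9, 1.14 and 1.501 for Obox5, 1.48 and 1.83 for Itpr2, 0.70 and 1.06 for Dppa3, 0.87 and 1.23 for Ezh2, 0.74 and 1.10 for H1foo, 1.23 and 1.56 for Nanog and 1.06 and 1.42 for Tcl1. Gm20594, whose difference was near 0, ranged from -0.20 (without GV replicate 2) to 0.22 (without GV replicate 1) when 1 library was left out, and had -0.01 without MII replicate 1. Differences of small RNAs detected in 1 MII library ranged from 0 to 8.405 for Snord57, 0 to 9.26 for Scarna17 and 0 to 4.93 for Mir3074-2 when 1 library was left out.

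Shares of the summed FPKM, as MII over GV, moved by more than the spread between libraries in 11 of 14 lists without the 10 genes of highest level, and each of these 11 stayed on its side of 1. They were then 0.170 for ribosomal proteins, 0.357 for mitochondrial ribosomal proteins, 0.242 and 0.249 for respiratory complexes I and II to V, 0.710 for the proteasome, 1.68 for the spliceosome, 1.88 for nuclear pores, 2.40 for the cyclin B-CDK1 switch, 1.74 for cohesin, shugoshin and separase (2.68 with all genes), 1.42 for linker and replacement histones and 2.69 for early embryo factors. With small RNA genes in the sum, the last 2 were 1.68 and 2.53. Of these 14 lists, no other choice moved a share by more than the spread between libraries. In another list, DNA methylation and imprint protection, the ratio turned from 1.65 to 0.777 without the 10 genes of highest level.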
